A study of Mus musculus with 8 samples.

Results

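Aminoacyl-tRNA synthetases are the enzymes that load each amino acid onto its own tRNA, and 36 of their genes were followed here through the embryonic mouse heart with and without Dgcr8. Members were taken by name from the deposited expression table of 24385 genes: 20 genes whose enzymes work mainly in the cytosol, and 16 genes with a symbol ending in 2, whose enzymes work in mitochondria. All 36 were in the table and all 36 had a mean of at least 1 FPKM (fragments per kilobase of transcript, divided by each library's total of mapped fragments), the level set for testing, as did 10018 genes in all.

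Hearts came from C57BL/6 embryos at embryonic day 8.5 and 9.5 (E8.5 and E9.5), with 2 libraries for each of the 4 groups. The controls, labelled wild type (WT), carried both loxP alleles of Dgcr8 and the Rosa26 mT/mG reporter but no Cre. The conditional knockout (cKO, labelled Mesp1Cre/+; Dgcr8-/-) carried the same alleles plus Mesp1 Cre, so that WT and cKO also differ by the Cre allele. Mesp1 Cre is active in early mesoderm, from which heart muscle, endocardium and other cells descend, and cells outside that lineage in the dissected heart keep Dgcr8. Whether embryos were pooled for a library is not given in the sources used here.

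Every cell needs a full set of charged tRNAs, one set for the ribosomes of the cytosol and a second for those of mitochondria, where the heart makes part of its respiratory chain. Separate nuclear genes encode most enzymes of the second set, whereas Gars and Kars supply both compartments from a single gene. Several cytosolic enzymes sit together in a multisynthetase complex on the scaffolds Aimp1, Aimp2 and Eef1e1. When amino acids run short or the endoplasmic reticulum is stressed, the transcription factor ATF4 raises transcription of amino acid transporters, biosynthetic enzymes and a subset of the cytosolic synthetases. Dgcr8 itself is the RNA-binding partner of Drosha in the processing of primary microRNAs.

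Dgcr8 was at 7.10 and 8.60 FPKM in the E8.5 WT hearts and at 1.64 and 4.67 in the E8.5 cKO hearts. At E9.5 it was at 3.49 and 3.23 FPKM in WT and at 1.151 and 1.77 in cKO. WT and cKO did not overlap at either stage, and E8.5 cKO replicate 2 lay nearest to its controls. The 2 E8.5 cKO libraries were the least alike of any pair: 16 of the 36 synthetase genes differed by 1.5-fold or more between them, beside 38.0% of all tested genes, against 3, 6 and 8 genes in the E8.5 WT, E9.5 WT and E9.5 cKO pairs, beside 13.5%, 20.4% and 16.0% of all tested genes. All 8 cardiomyocyte markers were present in every library, with a summed level between 24137 and 76081 FPKM. The median FPKM of the tested genes fell from between 7.62 and 9.90 at E8.5 to between 3.85 and 4.50 at E9.5, so class values and the main contrasts are given relative to the median gene. A log2 change without those words, and with no other scaling named, is on the deposited scale, on which the median gene itself changed by -0.07 between genotypes at E9.5, by -0.28 at E8.5 and by 0.18 in their interaction. In bulk tissue, fewer cells of a type and less RNA per cell cannot be told apart.

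The cytosolic enzymes were the more abundant class in every library. FPKM is a value per transcript length, so genes can be set side by side: over the 8 libraries Gars, the glycyl enzyme, had the highest mean at 139.7 FPKM, followed by Kars, the lysyl enzyme, at 127.0. Kars was above Gars in both genotypes at E8.5, and Gars above Kars in both at E9.5. The next cytosolic gene was Hars, the histidyl enzyme, at 70.5 FPKM, and the lowest were Lars, the leucyl enzyme, at 14.2 and Vars, the valyl enzyme, at 13.8. Of the 16 mitochondrial genes, 12 had a mean below that of Vars. The exceptions were Lars2 at 57.4, Tars2 at 16.5, Rars2 at 16.0 and Fars2 at 14.1 FPKM, and the lowest of all were Vars2 at 1.87 and Wars2 at 1.38.

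At E8.5 the median cytosolic gene was at 67.7 and 57.3 FPKM in WT hearts and at 52.0 and 41.3 in cKO hearts, and a day later at 32.8 and 34.7 against 26.2 and 29.2. The median mitochondrial gene was at 6.09 and 7.11, 4.97 and 5.69, 3.73 and 3.72, and 3.23 and 2.44 FPKM in the same order. On the deposited scale both classes were thus lower in cKO than in WT at each stage, and lower at the later stage in each genotype. The ratio of the cytosolic to the mitochondrial median lay between 7.25 and 11.9, and the ranges of the 4 groups overlapped: 11.1 and 8.06, 10.5 and 7.25, 8.80 and 9.33, and 8.12 and 11.9.

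**Figure D1:**
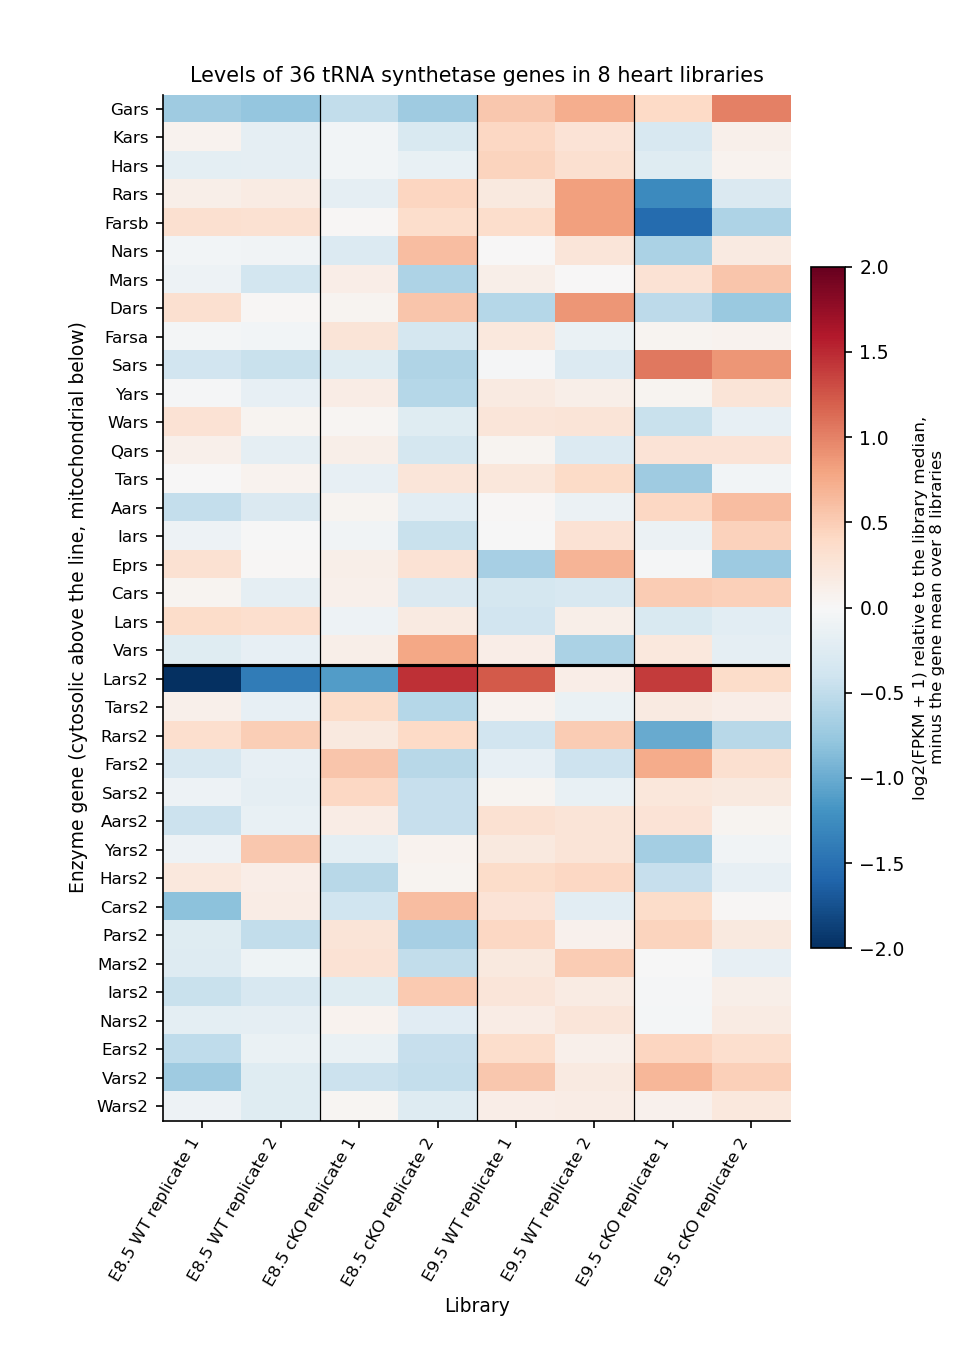
Each row is 1 of the 36 enzyme genes, ordered by mean level within its class, and each column 1 library. Colour gives log2(FPKM + 1) relative to the library's median tested gene, minus the gene's own mean over the 8 libraries, with colours held at 2 log2 units in either direction. Gars is above its mean in all E9.5 libraries, Sars and Cars in both E9.5 cKO libraries, and Farsb and Rars are below theirs in both E9.5 cKO libraries.

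The comparison of cKO with WT is given first at E9.5, where Dgcr8 was below its controls, as it was at E8.5. The median gene of the table changed by -0.07 on the log2 scale, and relative to it the median change was -0.05 over the cytosolic enzymes and 0.05 over the mitochondrial enzymes. Without E9.5 WT replicate 1 the cytosolic value was -0.27. Taken instead as the median level within each library, on the log2 scale and relative to the library's median gene, the cytosolic class was at 2.67 and 2.70 in WT and 2.31 and 2.64 in cKO, and the mitochondrial class at -0.17 and -0.22 in WT and -0.40 and -0.50 in cKO. The median of the changes and the change of the medians thus differ, and by the latter both classes were lower in cKO without overlap of the groups. Within the classes single genes went both ways, from -1.66 for Farsb to 1.12 for Sars relative to the median gene, and 26 of the 36 genes stayed within 1.5-fold of it. Beyond 1.5-fold, 3 of the 36 were above it and 7 below, beside 1121 and 1277 of all 10018 tested genes.

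No synthetase gene passed the test at E9.5 (limma, Benjamini-Hochberg adjusted p under 0.05 and a change of at least 1.5-fold), where 0.17% of all tested genes were called higher and 0.00998% lower. The lowest adjusted p among the 36 was 0.101. At an unadjusted p under 0.05, 2 genes were higher, Sars and Cars, where 5.27% of all tested genes were. At the same threshold 7 were lower, Farsb, Rars, Tars, Wars, Hars2, Rars2 and Yars2, where 10.5% of all tested genes were. Counting instead genes at least 1.5-fold from the median gene whose WT and cKO libraries did not overlap, 3 were higher (Sars, Cars and Fars2) where 10.9% of all genes were, and 6 were lower (Farsb, Rars, Tars, Rars2, Hars2 and Yars2) where 11.5% of all genes were. As shares of the 36 genes these counts are 5.56% and 19.4% by the unadjusted p, and 8.33% and 16.7% by the fold and the lack of overlap.

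**Figure D2:**
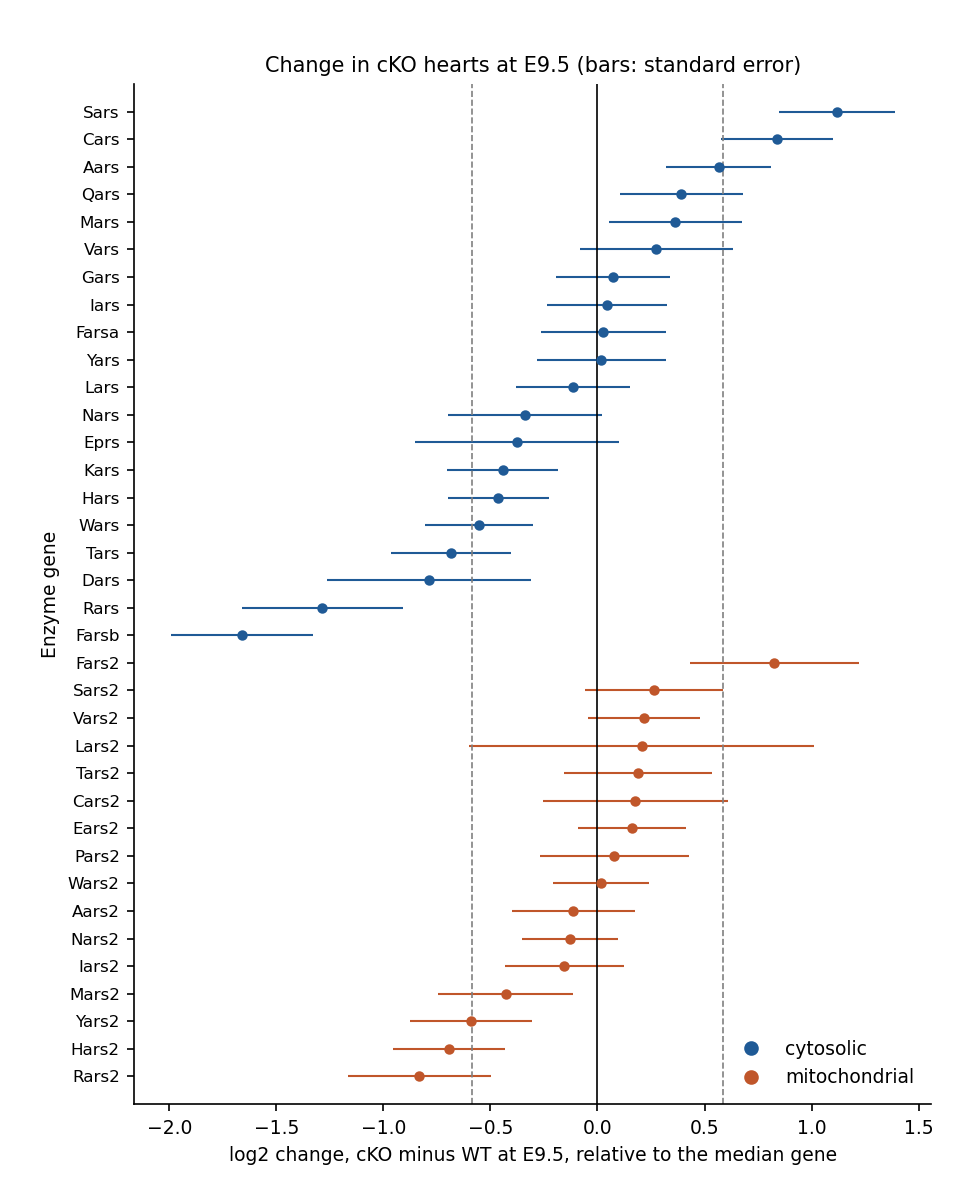
Points give the log2 change of each enzyme gene, cKO minus WT at E9.5, on the log2(FPKM + 1) scale and relative to the median gene, with the standard error of the limma fit as bars. Dashed lines mark 1.5-fold. Farsb at -1.66 and Sars at 1.12 lie at the ends, and both classes are spread around 0.

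Farsb and Farsa encode the beta and alpha subunits of the cytosolic phenylalanyl enzyme, which works as a tetramer with equal numbers of both. Farsb (chr1:78417957-78488897 in the table) was at 47.6 and 68.9 FPKM in E9.5 WT hearts and at 12.6 and 21.6 in E9.5 cKO. Both cKO libraries lay below both WT libraries, and the log2 change was -1.73 with a standard error of 0.33 (limma adjusted p = 0.101). Farsa was at 42.8 and 34.7 FPKM in WT and at 39.7 and 35.2 in cKO, which overlap, with a log2 change of -0.04. The ratio of Farsb to Farsa was accordingly 1.11 and 1.98 in E9.5 WT hearts and 0.317 and 0.614 in E9.5 cKO. This pair of subunits was singled out after its values were seen. At E8.5 the ratio was 1.29 in both WT libraries and 0.845 and 1.65 in cKO, on either side of the controls. Farsb overlaps Sgpp2 by 2330 bases, and Sgpp2 was below 1 FPKM in all 8 libraries.

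Sars, the cytosolic seryl enzyme, also charges the tRNA that carries selenocysteine. Its level (chr3:108424863-108445259) was 32.2 and 27.9 FPKM in E9.5 WT hearts and 71.3 and 56.0 in E9.5 cKO, against 52.2 and 48.4 in E8.5 WT hearts and 46.1 and 34.9 in E8.5 cKO. The E9.5 cKO libraries were the highest of the 8, and the log2 change at E9.5 was 1.05 with a standard error of 0.27 (limma adjusted p = 0.138). Its mitochondrial counterpart Sars2 was at 7.60 and 6.64 FPKM in E9.5 WT and at 9.0 and 7.59 in cKO, which overlap, with a log2 change of 0.19.

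Rars, the arginyl enzyme of the multisynthetase complex, was at 44.9 and 71.4 FPKM in E9.5 WT and at 16.1 and 28.7 in cKO. The groups did not overlap, and the log2 change was -1.36 with a standard error of 0.38 (limma adjusted p = 0.154). Rars2, the mitochondrial arginyl enzyme, stood lower as well, at 7.10 and 14.6 FPKM in WT and at 4.48 and 5.61 in cKO, a log2 change of -0.90 (limma adjusted p = 0.251). Both arginyl genes thus had cKO libraries below all WT libraries at E9.5. The genes given singly at E9.5 were picked by their small p there, so a lack of overlap among them adds no support.

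Cars, the cysteinyl enzyme, was at 9.43 and 9.98 FPKM in E9.5 WT and at 18.5 and 16.0 in cKO. The log2 change was 0.77 with a standard error of 0.26 (limma adjusted p = 0.220), and the groups did not overlap. Aars, the alanyl enzyme, was at 26.1 and 24.5 FPKM in WT and at 35.9 and 36.3 in cKO, a log2 change of 0.50 (limma adjusted p = 0.375). These genes, with Sars, were the cytosolic members highest in cKO relative to the median gene.

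Tars, the threonyl enzyme, was at 28.6 and 33.1 FPKM in E9.5 WT and at 14.9 and 21.3 in cKO, a log2 change of -0.75 (limma adjusted p = 0.251). Wars, the tryptophanyl enzyme, was at 33.4 and 34.7 FPKM in WT and at 21.0 and 22.6 in cKO, a log2 change of -0.62 (limma adjusted p = 0.290). Neither gene overlapped between the groups. Hars was at 69.4 and 65.3 FPKM in WT and at 44.2 and 48.3 in cKO, a log2 change of -0.53 (limma adjusted p = 0.323). Hars2, which lies 2 bases beyond Hars on chromosome 18, was at 3.86 and 4.15 FPKM in WT and at 1.82 and 2.09 in cKO, a log2 change of -0.76 (limma adjusted p = 0.224). Neither of these neighbours overlapped between the groups.

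Among the other mitochondrial enzymes Yars2, the tyrosyl enzyme, was at 3.60 and 3.97 FPKM in E9.5 WT and at 1.62 and 2.497 in cKO, a log2 change of -0.66 (limma adjusted p = 0.315). Fars2, the single-chain phenylalanyl enzyme of mitochondria, was at 8.34 and 7.17 FPKM in WT and at 17.2 and 10.98 in cKO, a log2 change of 0.76 (limma adjusted p = 0.399). Fars2 thus lay on the other side of the median gene from Farsb. The remaining 24 genes lay between -0.79 for Dars and 0.39 for Qars relative to the median gene. Mars, the methionyl enzyme, at 45.2 and 43.3 FPKM in WT and 52.7 and 56.3 in cKO, shares 69 bases with Ddit3, which was at 4.47 and 4.41 in WT and 19.9 and 15.7 in cKO, and reads in the shared stretch cannot be assigned without knowing whether strand was used.

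**Figure D3:**
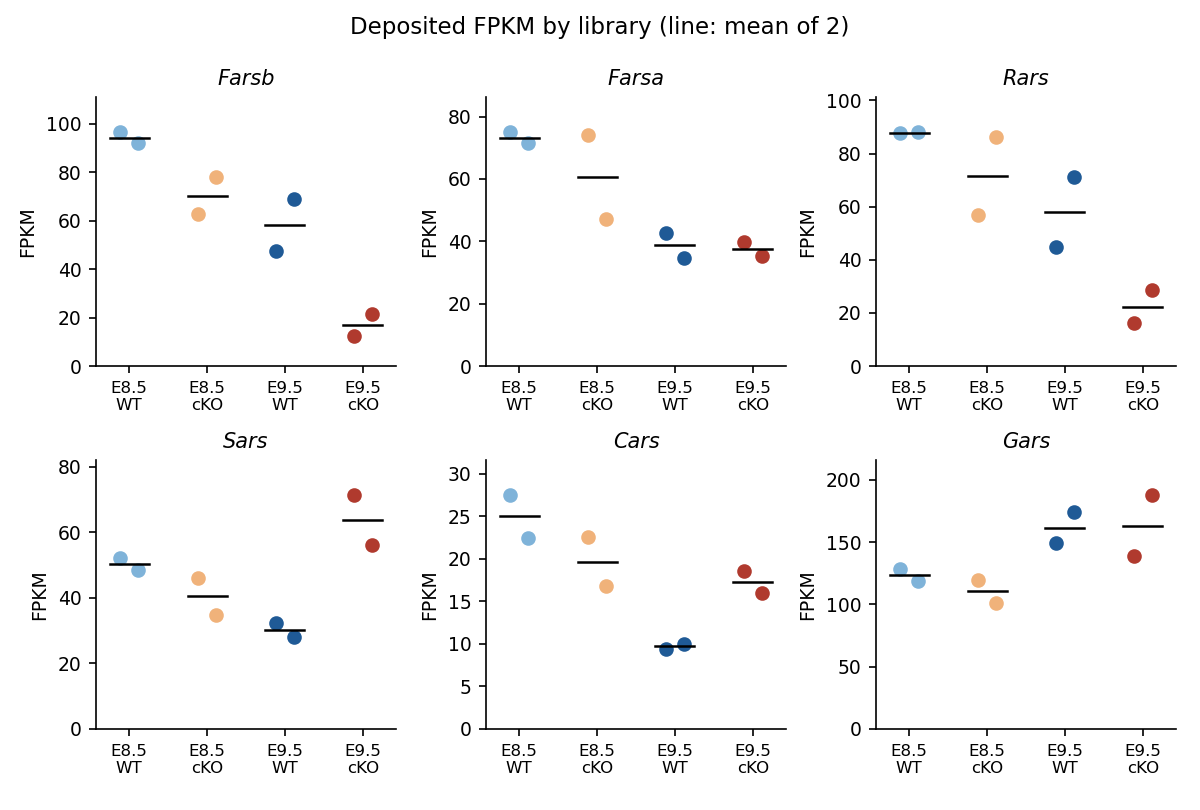
Deposited FPKM of 6 cytosolic genes, with a point for each library, a line at the mean of each pair and each axis starting at 0. Farsb and Rars are lowest in the 2 E9.5 cKO libraries (12.6 and 21.6, and 16.1 and 28.7 FPKM), Sars is highest there (71.3 and 56.0), Cars is higher there than in E9.5 WT, and Farsa and Gars overlap between genotypes at E9.5.

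Transcript GC content moved with these differences. Across the 36 genes, Spearman's rho between the GC content of the transcript and the E9.5 change was 0.716, a description across genes that are not independent replicates and that share the same libraries. Over the 9122 tested genes with a GC value it was 0.405. The same property separated the 2 E9.5 WT libraries from each other: rho with the difference of replicate 1 minus replicate 2 was 0.732 over the 36 genes and 0.627 over all. Dars, the aspartyl enzyme, with the lowest GC content of the 36 at 42.0%, was at 24.1 FPKM in E9.5 WT replicate 1 and 70.4 in replicate 2. Eprs, the glutamyl-prolyl enzyme, at 46.9% GC, was at 8.79 and 24.7 FPKM in the same libraries. Not every gene low in GC differed so much: Nars2, the mitochondrial asparaginyl enzyme, at 44.8%, was at 2.25 and 2.59. With the GC trend removed the change relative to the median gene was -1.40 for Farsb, 0.998 for Sars, -1.03 for Rars, 0.69 for Cars and -0.56 for Rars2, and the class medians were -0.03 and -0.01. In that setting Aars was at 0.32 instead of 0.57, below Qars at 0.40, and Yars2 at -0.35 instead of -0.59. Wars lay farther out, at -0.69 instead of -0.55. The summed cardiomyocyte markers were also higher in both E9.5 cKO libraries, at 75481 and 76081 FPKM, than in WT, at 54901 and 52860. Of the 8 markers 7 were above the median gene, with a median of 0.64 relative to it, while Myh6 went the other way, at 916 and 777 FPKM in WT and 424 and 567 in cKO (-0.71 relative to the median gene). Of 6 primitive erythroid markers 5 were above the median gene, with a median of 1.04, although their sums overlapped, at 14428 and 29565 FPKM in WT and 39582 and 29100 in cKO. Of 6 endothelial markers 4 were above it, with a median of 0.25, led by Pecam1 at 1.11. Tek and Emcn went the other way, at -0.46 and -0.41. None of these markers was called, and 2 of the 20, Alas2 and Pecam1, were higher at an unadjusted p under 0.05. The part of cell composition in these results was not tested.

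**Figure D4:**
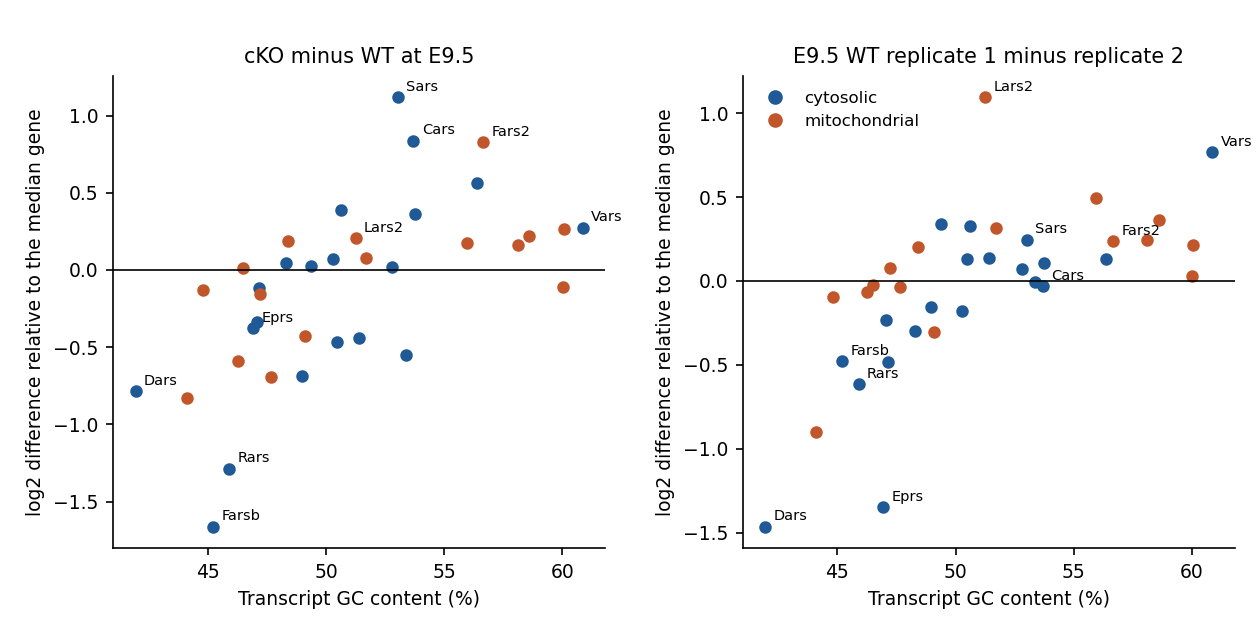
Transcript GC content in percent is on the x axis of both panels and each point is 1 of the 36 genes. The y axis is a log2 difference relative to the median gene, cKO minus WT at E9.5 on the left and E9.5 WT replicate 1 minus replicate 2 on the right. Points rise from lower left to upper right in both panels (Spearman's rho 0.716 and 0.732).

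The number of settings with an unadjusted p under 0.05 varied between genes. Across the main test and its 17 alternatives, Sars was higher and Farsb lower at an unadjusted p under 0.05 in all 18. In 4 of these an E9.5 library was left out, so that the lone library of its group is assumed to vary like the other groups. Rars was lower in 16, Cars higher in 15, Rars2 lower in 14, Tars in 11 and Wars in 10. Hars2 was lower in 13 and Yars2 in 6 of 17, since both are below the filter of 5 FPKM used in another. The adjusted p of Farsb ranged from 0.0589 to 0.746, the latter without E9.5 cKO replicate 1, and no alternative brought any of the 36 under 0.05. On simulated data of this design, the test recovered 65.3% of genes changed 4-fold and 0% of genes changed 2-fold (the size of the Sars change).

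Relations to amino acid supply and to the complex were examined with lists of neighbouring pathway genes. Of 16 genes listed as ATF4 targets, Atf4 itself among them, 14 were tested and 13 stood above the median gene at E9.5, with a median of 1.48 relative to it. In that list 10 were higher at an unadjusted p under 0.05 (5.27% of all tested genes) and 2 were called higher (0.17% of all). Chac1, which degrades glutathione, rose from 0.236 and 0.291 FPKM in WT to 15.3 and 7.23 in cKO (limma adjusted p = 0.014). Trib3, a pseudokinase that restrains ATF4 signalling, rose from 2.02 and 1.53 to 27.3 and 14.6 FPKM (limma adjusted p = 0.023). In both, all cKO libraries exceeded all WT libraries. At E8.5 the same list had a median of -0.02 relative to the median gene, and none of its genes passed an unadjusted p of 0.05 in either direction.

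Amino acid transporters stood above the median gene as well. Of 8, 7 were tested, all 7 were above it, the median was 0.89, and 4 were higher at an unadjusted p under 0.05, again beside 5.27% of all tested genes. Slc7a3, a transporter of arginine and lysine, rose from 0.124 and 0.240 FPKM in WT to 5.12 and 4.22 in cKO (limma adjusted p = 0.013). Slc3a2, the heavy chain shared by several exchangers, was at 46.3 and 41.5 FPKM in WT and at 105 and 100.01 in cKO (limma adjusted p = 0.136).

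The 13 synthetases known as targets of the amino acid response had a median of 0.05 relative to the median gene at E9.5. Of these, 8 were above it and 5 below. An unadjusted p under 0.05 was reached by Sars and Cars in the higher direction, beside 5.27% of all tested genes. In the lower direction it was reached by Tars and Wars, beside 10.5% of all tested genes. These 13 thus had no common direction.

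Promoters were looked up for the letters of the C/EBP-ATF response element, through which ATF4 acts. RefSeq promoter windows (GRCm38.p6, 250 bases before to 50 bases after the start) were found for 27 of the 36 genes. The genes not matched were Cars, Hars, Lars, Nars, Rars, Vars, Wars, Hars2 and Pars2. Only some of the matches among the members are given here, so their number cannot be set against the shares of all windows. TGATGCAA, searched on both strands, was in 0.895% of all 32851 windows, and those of Iars, Tars and Yars were among them. TGATGNAA, which includes every match of the first, was in 3.97% of all windows, and that of Gars was among them. The 30 bases around these matches are shown because the genes are cytosolic members with the letters of that element, and capitals mark the match on the gene's own strand, where TTGCATCA and TTTCATCA are the reverse complement.
Gars, chr6:55037960-55037989, plus strand, 30 bases before the start: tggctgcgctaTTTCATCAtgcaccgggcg
Iars, chr13:49682126-49682155, plus strand, 7 bases after the start: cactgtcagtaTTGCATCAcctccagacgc
Tars, chr15:11399655-11399684, minus strand, 15 bases before the start: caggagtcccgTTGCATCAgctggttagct
Yars, chr4:129189895-129189924, plus strand, 3 bases after the start: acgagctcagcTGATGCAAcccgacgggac

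Sars, the cytosolic enzyme highest in cKO at E9.5 relative to the median gene, had no match to either motif in its window.

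The 8 enzymes of the multisynthetase complex (Eprs, Iars, Lars, Mars, Qars, Rars, Kars and Dars) had a median of -0.25 relative to the median gene at E9.5, with 3 above and 5 below. Only Rars among them passed an unadjusted p of 0.05, in the lower direction. Of the 3 scaffolds, with a median of -0.38, none did. Eef1e1 was at 58.4 and 63.9 FPKM in WT and at 31.8 and 47.7 in cKO (limma adjusted p = 0.321), whereas Aimp2 was at 103 and 93.2 in WT and at 117 and 113 in cKO.

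Genes that work beside the mitochondrial enzymes were compared as well. Of the glutamine-forming amidotransferase, the subunit Gatc was lower at an unadjusted p under 0.05, at 4.88 and 4.87 FPKM in WT and 2.79 and 3.12 in cKO. Its partner Gatb lay on the other side of the median gene, by 0.46, at 6.13 and 5.55 FPKM in WT and 9.78 and 6.47 in cKO. The third subunit, Qrsl1, was at -0.13 relative to the median gene, and Mtfmt, which formylates the initiator tRNA, at -0.27. Of the 77 mitochondrial ribosomal protein genes, 68 were below the median gene, the median was -0.27, and 16 were lower at an unadjusted p under 0.05 (10.5% of all tested genes). Of 7 mitochondrial translation factors tested, 6 were below the median gene, with Gfm1, an elongation factor, lower at an unadjusted p under 0.05 (21.3 and 32.1 FPKM in WT, 11.4 and 16.9 in cKO). None of these genes was called. The 16 mitochondrial synthetases had 9 genes above the median gene and 7 below it.

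Among 6 cytosolic elongation factors 5 were below the median gene. Eif5a, which helps ribosomes through proline stretches, was at 3151 and 2710 FPKM in E9.5 WT and at 1305 and 1492 in cKO, a log2 change of -1.07 (limma adjusted p = 0.112). The 5 tested genes of the remaining charging and editing group, among them Dtd1 and Pstk, were all below the median gene, with a median of -0.40, and none passed an unadjusted p of 0.05.

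At E8.5 the same contrast was taken a day earlier. The median gene changed by -0.28, and relative to it the cytosolic class stood at -0.04 and the mitochondrial class at 0.06. All 6 yolk sac endoderm markers (median 1.62) and all 8 cardiomyocyte markers (median 0.61) were above the median gene in the same comparison, and none of them was called. Their sums overlapped, at 756 and 2619 FPKM in WT and 6860 and 2015 in cKO for yolk sac endoderm, and at 24137 and 40265 against 53051 and 37527 for cardiomyocytes, with cKO replicate 2 below WT replicate 2 in both lists. Their part in the comparison was not tested. No synthetase gene was called, where 0.00998% of all tested genes were called higher and 0.0% lower, and the lowest adjusted p was 0.590. At an unadjusted p under 0.05 no synthetase was higher (0.26% of all genes) and 2 were lower, Hars2 and Lars (7.55% of all genes). Relative to the median gene, Vars and Lars2 were at least 1.5-fold higher without overlap of the groups (2.79% of all genes) and none was as much lower (2.04% of all genes).

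Hars2 was at 7.93 and 7.21 FPKM in E8.5 WT hearts and at 3.21 and 5.37 in E8.5 cKO, a log2 change of -0.72 (limma adjusted p = 0.590). Relative to the median gene the E8.5 change was -0.44, and after median-ratio scaling it was -0.39 with an unadjusted p of 0.204. Lars was at 25.7 and 24.4 FPKM in WT and at 14.6 and 17.5 in cKO, a log2 change of -0.62 and of -0.33 relative to the median gene. Vars was at 16.3 and 16.7 FPKM in WT and at 16.8 and 26.9 in cKO. Lars2 was at 15.5 and 24.3 FPKM in WT and at 24.5 and 149.8 in cKO, so its mean in cKO rests on replicate 2. The summed level of 8 decidua and uterine natural killer cell markers was 930 and 1160 FPKM in the WT hearts of that stage and 11.4 and 5146 in the cKO hearts, against 1.77 to 6.95 at E9.5. The highest marker was Prl8a2, a decidual prolactin, at 449 and 1141 FPKM in WT and 9.95 and 5104 in cKO, and of the other markers only Prl3c1 also peaked in E8.5 cKO replicate 2. The remaining 6, which mark uterine natural killer cells, stood apart in E8.5 WT replicate 1 instead, as in Gzmd at 116 FPKM there and 0.287, 0.213 and 0.480 in the other E8.5 libraries. The part of maternal tissue in the E8.5 values was not tested.

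Development from E8.5 to E9.5 was compared within each genotype, on libraries that the genotype comparisons also use. In WT the median gene changed by -0.84, and relative to it the cytosolic class stood at 0.06 and the mitochondrial class at 0.22. Markers of cell types moved between the same libraries: all 8 cardiomyocyte markers were above the median gene (median 1.73, 4 called higher), as were all 6 yolk sac endoderm markers (median 2.35, 1 called higher), and all 8 decidua and natural killer markers were below it (median -2.36, 2 called lower). Their part in the stage values was not tested. On the deposited scale 13 synthetase genes were called lower (Lars, Cars, Qars, Vars, Wars, Farsa and Iars in the cytosolic class, and Rars2, Tars2, Yars2, Sars2, Hars2 and Wars2 in the mitochondrial class) where 46.7% of all tested genes were, and none higher where 1.4% were. That count was 0 without E8.5 WT replicate 1, E8.5 WT replicate 2 or E9.5 WT replicate 1, 5 without E9.5 WT replicate 2, 6 without either E9.5 cKO library and 23 without either E8.5 cKO library. After median-ratio scaling, which sets the libraries to a common typical gene, Gars was called higher (3.2% of all genes) and none lower (0.689% of all genes).

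Gars was at 128 and 119 FPKM in E8.5 WT and at 149 and 174 in E9.5 WT. It was the only cytosolic gene higher at E9.5 in WT on the deposited scale, by 0.38 (limma adjusted p = 0.242), and stood 1.22 above the median gene. After median-ratio scaling the log2 change was 1.37 (limma adjusted p = 0.039). In cKO Gars was at 119.9 and 101 FPKM at E8.5 and at 139 and 188 at E9.5, a log2 change of 1.30 after the scaling (limma adjusted p = 0.043). Genotype left no gap at E9.5, where the 2 cKO values lie on either side of the 2 WT values.

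Hars was next among cytosolic genes relative to the median gene in WT, at 0.41, from 91.3 and 89.9 FPKM at E8.5 to 69.4 and 65.3 at E9.5. Lars was lowest, at -0.64, from 25.7 and 24.4 FPKM to 6.81 and 10.3 (log2 change -1.47, limma adjusted p = 0.012). Cars stood at -0.44, from 27.5 and 22.5 FPKM to 9.43 and 9.98 (log2 change -1.27, limma adjusted p = 0.014). Both genes fell on the deposited scale and neither was called after median-ratio scaling.

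Among mitochondrial genes Lars2 was highest relative to the median gene, at 2.27, from 15.5 and 24.3 FPKM at E8.5 to 78.3 and 37.3 at E9.5 (log2 change 1.43, limma adjusted p = 0.158). Its standard error of 0.81 was the widest of the 36. Vars2 stood at 0.68, from 1.66 and 2.55 FPKM to 2.08 and 1.47, which overlap on the deposited scale. Rars2 was lowest at -0.51, from 26.6 and 28.7 FPKM to 7.10 and 14.6 (log2 change -1.35, limma adjusted p = 0.019), and Fars2 stood at -0.21, from 16.3 and 17.6 FPKM to 8.34 and 7.17 (log2 change -1.04, limma adjusted p = 0.058).

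In cKO the median gene changed by -0.64 between the stages, with the cytosolic class at -0.07 and the mitochondrial class at 0.13 relative to it. All 8 cardiomyocyte markers were above the median gene here as well (median 1.16, 3 called higher), as were 5 of 6 yolk sac endoderm markers (median 0.93, none called) and 5 of 6 endothelial markers (median 0.87), of which Tek was called lower on the deposited scale. Of 6 primitive erythroid markers 4 were above it (median 0.34, 1 called higher). Of the 8 decidua and natural killer markers 6 were above it (median 0.70), whereas Prl8a2 was at -6.04 relative to it and Prl3c1 was listed at 0 in every E9.5 library, with none called. The part of these markers in the stage values of cKO was not tested either. On the deposited scale 12 synthetase genes were called lower (Farsb, Dars, Rars, Tars, Nars, Vars, Lars, Wars and Hars in the cytosol, Rars2, Yars2 and Hars2 in mitochondria) where 28.5% of all tested genes were, and none higher where 2.05% were. The count was 0 without either E9.5 cKO library and 5 without either E8.5 WT library. After median-ratio scaling Sars and Gars were called higher (3.99% of all genes) and none lower (0.769% of all genes). Sars had a log2 change of 1.39 on that scale (limma adjusted p = 0.023), and Farsb one of -1.28 (limma adjusted p = 0.087).

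**Figure D5:**
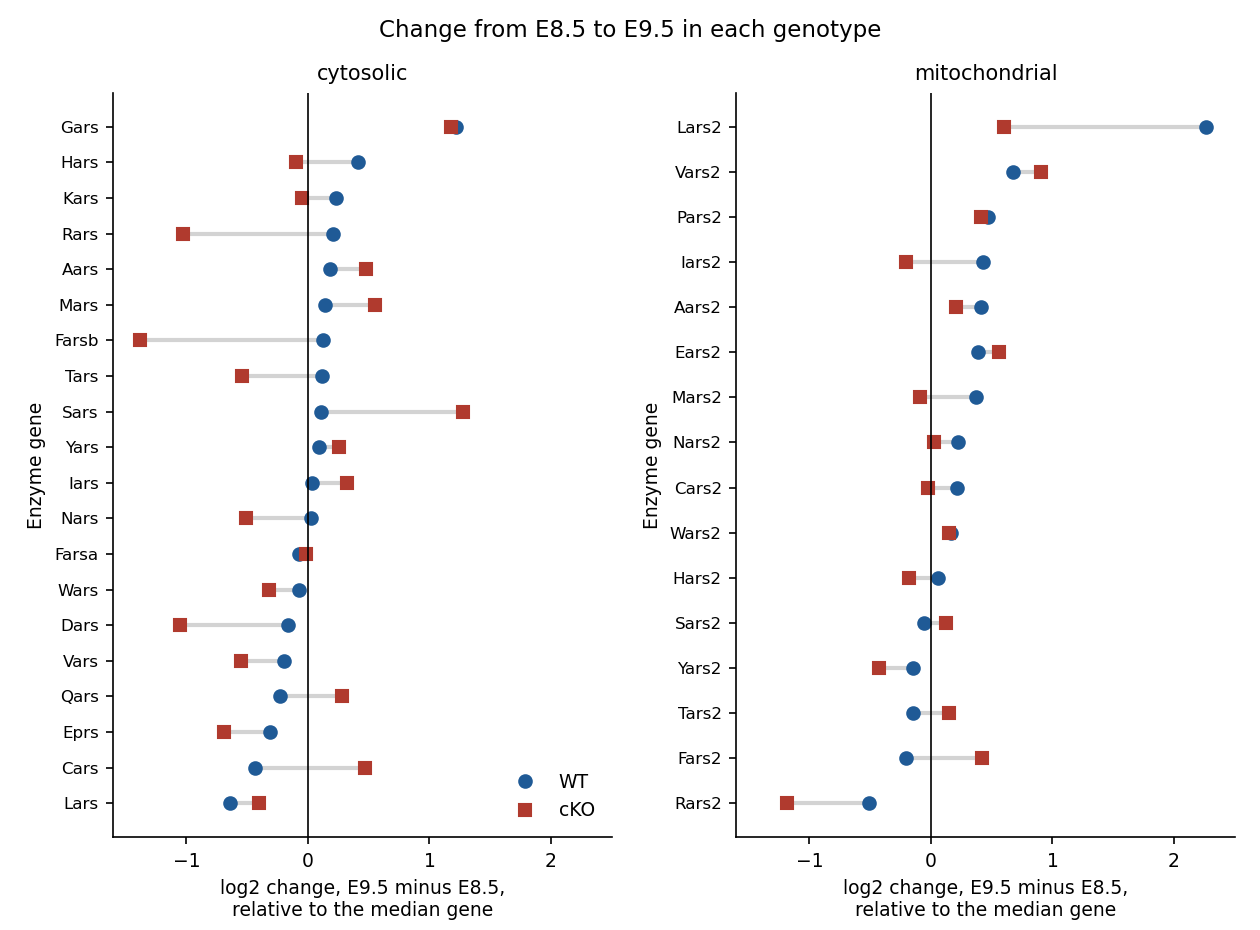
Log2 change from E8.5 to E9.5 relative to the median gene for each enzyme gene, circles for WT and squares for cKO, with cytosolic genes in the left panel and mitochondrial genes in the right. Gars lies at 1.22 and 1.18 in the 2 genotypes, Sars at 0.11 in WT and 1.28 in cKO, and Farsb at 0.13 in WT and -1.38 in cKO.

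Whether the effect of genotype differed between the stages was tested by the interaction of both. No synthetase was called, where 0.0399% of all tested genes were. At an unadjusted p under 0.05 there were 3 (7.18% of all genes): Sars with an interaction of 1.37 on the log2 scale (1.19 relative to the median gene, standard error 0.38, limma adjusted p = 0.551), Cars with 1.10 (0.93 relative, standard error 0.37, limma adjusted p = 0.653) and Farsb with -1.30 (-1.48 relative, standard error 0.47, limma adjusted p = 0.689). A difference between the stages in the response of these genes was therefore not established.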

How the data were processed

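Bulk RNA-seq of 8 heart libraries was analysed. Total RNA was amplified with the SMARTer/Smart-seq2 chemistry, sequenced on Illumina HiSeq2500 and, per the labels and methods, mapped with BWA to mm9. Of 35 members with a RefSeq symbol, 30 lie within 1000 bp of GRCm38.p6 at both ends, so table positions are read as GRCm38. The authors deposited FPKM. The program, strand use and read totals are not given in the sources used here, and depth relative to the lowest library, from the smallest FPKM steps, was 1 to 1.45. From 24930 entries 24385 genes were kept, and 10018 with a mean of at least 1 FPKM were tested. Log2(FPKM + 1) was fitted in limma 3.58.1 (R 4.3.3; 4 group means, variance trend, two-sided, Benjamini-Hochberg over all tested genes), with calls at adjusted p under 0.05 and 1.5-fold. The test was tested on simulated data. Replicates are 2 independent biological samples per group. Exact permutation of 2 against 2 cannot go below 0.333, so none was used. Genes were named by rule: 8 cytosolic and 4 mitochondrial members with the smallest E9.5 p, the 2 highest and 2 lowest WT stage changes of each class, and up to 3 genes of each other list. Members and lists were chosen with earlier results of these data known. Alternatives were scaling, quantile normalization, GC trend, pseudocount, filters, variance trend, samples fitted, replicate block and leaving out each library. Some items, a promoter match and a list among them, are not reported here.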

Additional observations from a re-analysis of the deposited data

Results flagged for a closer look

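The effect of genotype pointed opposite ways at E8.5 and E9.5, in every library relative to the median gene, for 2 of the 36 enzyme genes (5.56%), a pattern shown by 3.37% of all tested genes. For Hars the cKO effect at E9.5 minus that at E8.5 was -0.31 on the log2 scale (limma adjusted p of the interaction = 0.876). For Iars2, the mitochondrial isoleucyl enzyme, it was -0.44 (limma adjusted p of the interaction = 0.844). The opposite directions hold relative to the median gene, where the differences are -0.49 and -0.62. On the deposited scale, to which -0.31 and -0.44 belong, Hars was lower in cKO at both stages, with log2 changes of -0.22 at E8.5 and -0.53 at E9.5, and Iars2 changed by 0.21 and -0.22. The tests did not establish a difference for either gene.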

How the results depend on the processing

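The count of called synthetase genes stayed at 0 for cKO against WT at both stages and for the interaction under every alternative run. For E9.5 against E8.5 in WT it was 13, and it was 1 with median-ratio scaling (Gars, in the opposite direction), 0 with quantile normalization, 21 with the GC trend removed, 6 with no filter, 22 with only the 2 groups compared, and 0 to 23 when 1 library was left out. In cKO it was 12, and it was 2 with median-ratio scaling (Sars and Gars, in the opposite direction), 1 with quantile normalization, 5 with no filter, 4 with only the 2 groups compared, and 0 to 13 when 1 library was left out. With no filter the cytosolic class median was -0.22 for cKO at E8.5, -0.41 for WT between stages and -0.52 for cKO between stages, and the mitochondrial one -0.12, -0.25 and -0.31, against a median gene taken over more low genes. The cytosolic WT stage median was 0.25 with median-ratio scaling and 0.24 with a pseudocount of 0.1. At a mean of at least 5 FPKM, where 6 mitochondrial genes remain, their median was 0.29 for cKO at E9.5 and -0.0901 for WT between stages. Leaving out 1 library gave -0.273 to 0.0339 for the cytosolic class at E9.5 in cKO, -0.091 to 0.175 for the mitochondrial class at E8.5 in cKO, and -0.039 to 0.231 for the mitochondrial class between stages in cKO. Hars between stages in WT reversed to -0.0587 with no filter. The cause of the other shifts was not tested. Replicate numbers did not pair the libraries (correlations -0.116 to 0.195), and with the replicate block 13 genes were called for WT between stages and 9 for cKO. FPKM without read totals gives no counting error.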
